A study of Homo sapiens with 8 samples.

Results

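Positive transcription elongation factor b (P-TEFb) and the ribonucleoprotein that holds it inactive were examined through 8 genes: HEXIM1, HEXIM2, LARP7, MEPCE, CDK9, CCNT1, CCNT2 and AFF4. They were chosen by name from 19970 protein-coding genes on chromosomes 1 to 22 and X, located by their RefSeq positions on GRCh38.p14 (hg38), and each was widened by 1 kb to both sides. The data were peaks of KAS-seq, a method that tags unpaired guanines in living cells with N3-kethoxal, so that a peak marks DNA whose strands are apart, as in a transcription bubble. The labels name the cells as HEK293T, a human embryonic kidney line that carries the SV40 large T antigen. The vitamin C group was kept for 10 min in medium with 0.5 mM vitamin C and then labelled for 10 min with 5 mM N3-kethoxal, and the control group was labelled in the same way without vitamin C. Each group had 2 labelled libraries with a peak list each. Titles name HEK293T throughout, while the cell line field carries a different number in all labelled libraries.

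P-TEFb is a kinase made of CDK9 and a T-type cyclin. It phosphorylates RNA polymerase II and the factors that hold it paused near the start of a gene, and so lets the polymerase move into productive elongation. Much of the cellular P-TEFb is kept inactive on the small nuclear RNA 7SK, where HEXIM1 or HEXIM2 binds and inhibits the kinase, LARP7 binds the end of the RNA and MEPCE caps it. AFF4 is the scaffold of the super elongation complex, which carries active P-TEFb. HEXIM1 is known as a gene that responds when P-TEFb is released from 7SK.

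The sequence around 5 annotated starts is shown because these starts cover the range of what was seen in the peak lists: a start covered in every library (HEXIM1), starts covered in part or only without treatment (MEPCE, HEXIM2, CCNT1), and a start with no peak at all (CDK9). Each is the 300 bases from 250 before to 50 after the annotated start, from RefSeq on GRCh38.p14, written 5′ to 3′ on the strand of the gene. They lie at chr17:45148225-45148524 (HEXIM1, plus strand), chr17:45161625-45161924 (the inner of 2 annotated HEXIM2 starts, plus strand), chr7:100428540-100428839 (the outermost of 3 MEPCE starts, plus strand), chr9:127785784-127786083 (CDK9, plus strand) and chr12:48716658-48716957 (the outer of 2 CCNT1 starts, minus strand). Capitals mark matches, on either strand, to the 4 motifs spelled out after the sequences.
HEXIM1: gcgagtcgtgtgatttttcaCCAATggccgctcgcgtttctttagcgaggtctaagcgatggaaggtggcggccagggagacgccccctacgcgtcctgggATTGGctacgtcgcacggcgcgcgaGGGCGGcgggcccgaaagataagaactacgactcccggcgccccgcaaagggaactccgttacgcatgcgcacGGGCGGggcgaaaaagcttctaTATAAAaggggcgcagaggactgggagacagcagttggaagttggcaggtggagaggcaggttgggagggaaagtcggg
HEXIM2: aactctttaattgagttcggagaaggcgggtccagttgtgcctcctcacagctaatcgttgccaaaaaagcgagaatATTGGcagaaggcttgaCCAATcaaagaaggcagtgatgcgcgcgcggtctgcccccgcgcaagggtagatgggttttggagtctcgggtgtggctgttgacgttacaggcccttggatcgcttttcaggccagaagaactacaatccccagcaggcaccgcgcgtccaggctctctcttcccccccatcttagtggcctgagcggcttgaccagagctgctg
MEPCE: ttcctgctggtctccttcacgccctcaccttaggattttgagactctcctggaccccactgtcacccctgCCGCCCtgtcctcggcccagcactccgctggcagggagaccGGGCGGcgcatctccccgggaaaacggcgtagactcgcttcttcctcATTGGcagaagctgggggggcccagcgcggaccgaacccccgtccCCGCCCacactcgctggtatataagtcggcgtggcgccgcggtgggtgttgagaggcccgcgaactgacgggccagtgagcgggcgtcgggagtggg
CDK9: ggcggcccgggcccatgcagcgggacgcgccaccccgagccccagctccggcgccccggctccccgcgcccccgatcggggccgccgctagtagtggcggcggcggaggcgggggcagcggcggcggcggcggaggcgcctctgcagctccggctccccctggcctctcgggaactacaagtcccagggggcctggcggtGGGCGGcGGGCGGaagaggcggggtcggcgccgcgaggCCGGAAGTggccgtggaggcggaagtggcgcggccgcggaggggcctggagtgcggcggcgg
CCNT1: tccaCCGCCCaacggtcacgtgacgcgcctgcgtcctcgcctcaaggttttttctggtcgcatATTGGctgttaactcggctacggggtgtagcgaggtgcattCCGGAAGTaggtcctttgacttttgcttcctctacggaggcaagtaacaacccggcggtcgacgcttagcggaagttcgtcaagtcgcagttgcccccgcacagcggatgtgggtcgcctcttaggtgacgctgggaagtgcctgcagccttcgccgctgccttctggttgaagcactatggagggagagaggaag

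TATAAA, the core of the TATA box, was found as an exact match in the HEXIM1 sequence at position -29 from the start and in none of the other 4. Near matches were not counted, such as the tatataag of the MEPCE sequence, so the search does not show which starts lack a TATA box. It was present in 9.46% of 22131 promoters of protein-coding genes. GGGCGG, the GC box, occurred in 56.3% of these promoters and was found in the sequences of HEXIM1 (2 matches), MEPCE (3), CDK9 (2) and CCNT1 (1). CCAAT occurred in 34.6% of promoters and was found at HEXIM1 (2 matches), HEXIM2 (2), MEPCE (1) and CCNT1 (1). CCGGAAGT, a motif of ETS factors, occurred in 5.34% of promoters and was found once each at CDK9 and CCNT1. Guanine and cytosine together made up 82.0% of the CDK9 sequence, 67.7% at MEPCE, 62.0% at HEXIM1, 59.0% at CCNT1 and 56.3% at HEXIM2, against a median of 62.3% over all promoters. Among the sequences shown, which were picked for their peak patterns, the highest content was at CDK9, the start without a peak. LARP7, also without a peak near its starts in any library, was not among them. A link between base content and peaks was not tested.

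The lists held 9816 and 9896 peaks with vitamin C and 30351 and 24111 in the controls, and covered 4.92 and 4.73 Mb with vitamin C and 15.6 and 12.9 Mb in the controls. Read totals are not in the lists. The number of labelled fragments at each summit and the local background were solved from the deposited fold and p of each peak. The lowest frequent background, taken as the genome mean, was 1.22 and 0.871 fragments with vitamin C and 0.817 and 0.849 in the controls. At that background the weakest called summits held 10 and 7 fragments with vitamin C and 6 and 6 in the controls. Of 5 genes listed as open in these cells only VIM had peaks, in all 4 libraries, while KRT8, KRT18, PAX2 and LHX1 had none. Of 10 genes of other tissues, ALB and HBA1 had a peak in 1 library each. With 2 libraries against 2, the exact two-sided permutation test cannot give a p below 0.333. Any complete separation of the groups gives this p, whatever the spread within them. The labels do not say whether the libraries came from separate cultures, so these p-values concern only the libraries at hand.

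Peaks at the 8 genes were fewer with vitamin C. The peaks at the HEXIM1 start and near the CCNT2 start were not narrower in both vitamin C libraries than in both controls. How peak widths changed over all genes was not tested. The 8 genes together met 10 and 9 peaks with vitamin C and 23 and 23 in the controls. HEXIM1, MEPCE, CCNT2 and AFF4 had a peak in all 4 libraries. CDK9 and HEXIM2 had peaks in both controls and in neither vitamin C library, which is called lost here. CCNT1 had peaks in both controls and in 1 vitamin C library, and LARP7 in 1 library of each group. In the lists as deposited, no member had peaks in both vitamin C libraries and in neither control, a pattern seen at 0.025% of all protein-coding genes. Of these genes 17.5% had a peak in all 4 libraries, 35.3% had one in both controls, 9.47% were lost and 52.5% had no peak in any library. Of the 7045 genes with a peak in both controls, 49.7% had one in all 4, 23.4% in 1 vitamin C library and 26.9% were lost, so 4 and 2 of the 7 such members are near what was seen over all genes. In lists cut to the same number of peaks, the members with a peak in both controls were HEXIM1, MEPCE, CDK9, CCNT1 and CCNT2 only. Of these, 1 (CDK9) was lost, against 7.42% of the 3881 genes with a peak in both controls there. A peak in all 4 libraries was seen at 3 of them (HEXIM1, MEPCE and CCNT2), against 76%. AFF4 then had peaks in both vitamin C libraries and in neither control, as did 2.39% of the 6856 genes with a peak in any library.

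**Figure D1:**
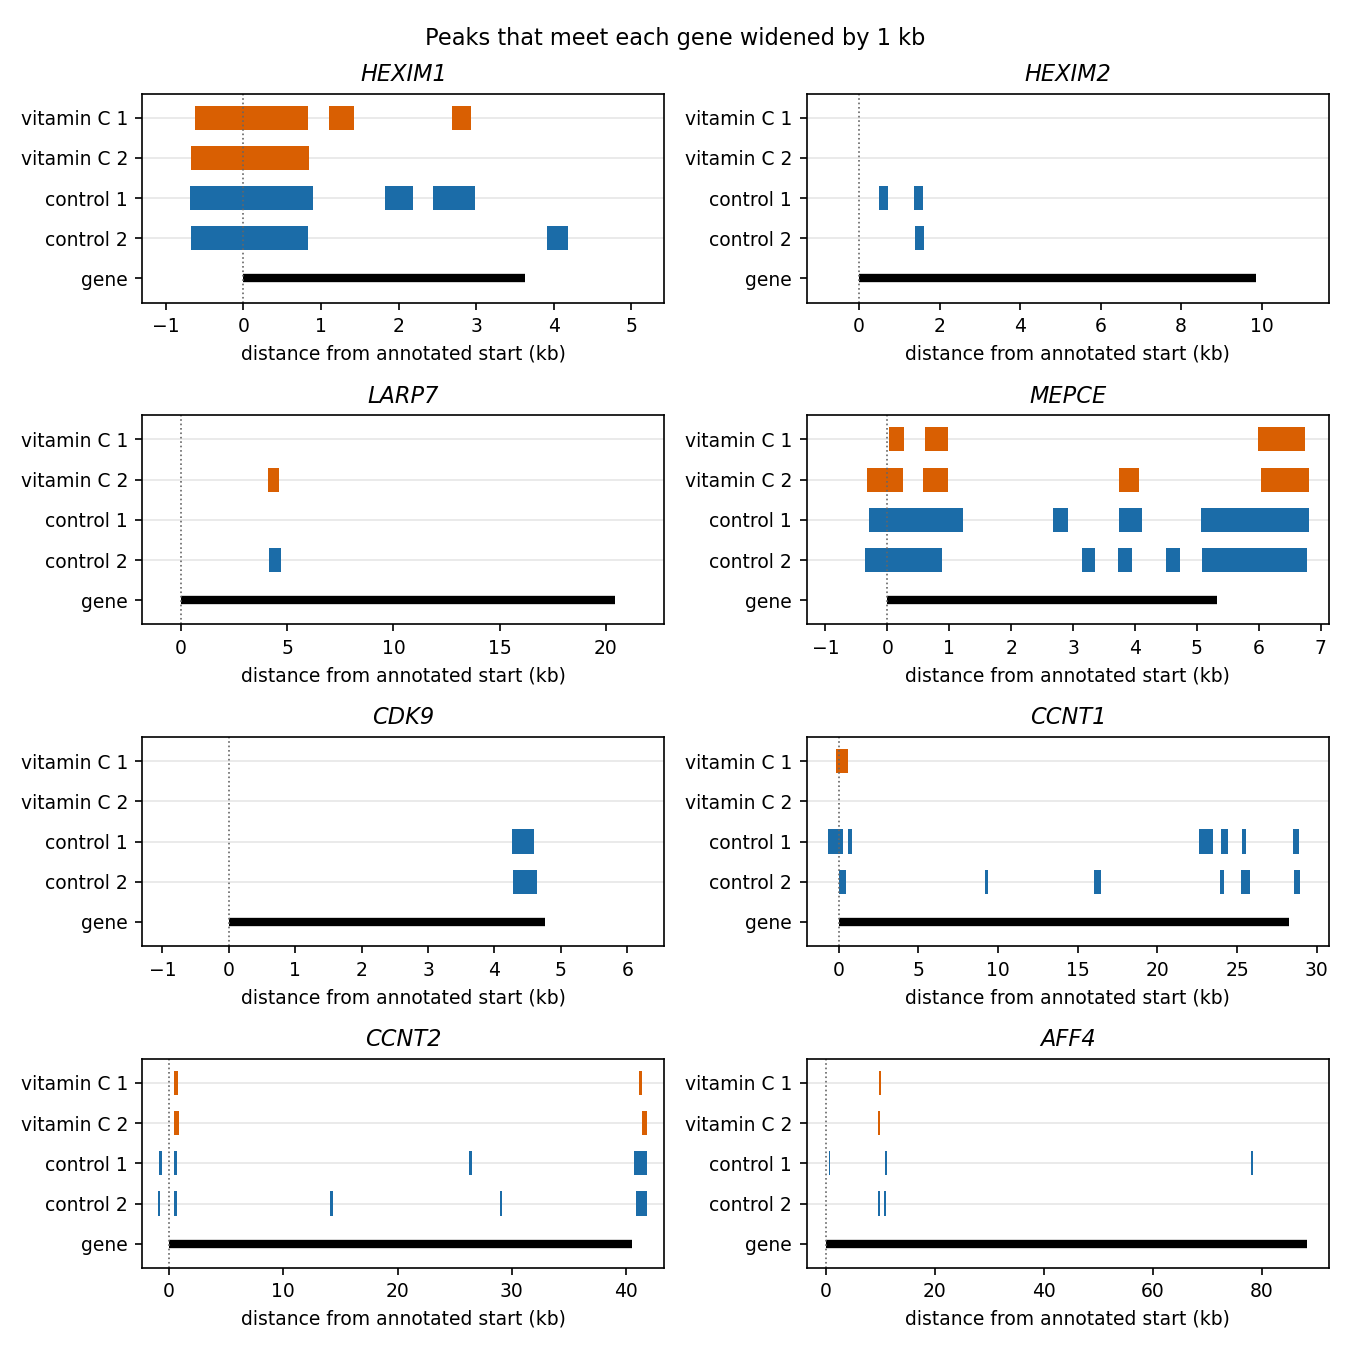
Peaks that meet each of the 8 genes widened by 1 kb, drawn by distance from the annotated start in kb along the gene's own direction, with 1 row per library (vitamin C above control) and the gene as a black bar. The HEXIM1 start peak has nearly the same extent in all 4 rows, the MEPCE start peak is broken into 2 pieces with vitamin C, and the rows of HEXIM2 and CDK9 are empty with vitamin C.

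Covered length, the number of bases of the widened gene that lie in peaks, gave the same picture by gene. It was lower in both vitamin C libraries than in both controls at 6 of 8 members and higher in none. Of the 9484 protein-coding genes with a peak in any library, 67.0% were lower in this sense and 0.169% higher. Among genes with a peak in both controls 90.2% were lower, so the share among members is no higher than over all genes. In lists cut to the same number of peaks only 2 members, MEPCE and CDK9, were lower in both vitamin C libraries and 1, AFF4, was higher. Of the 6856 genes with a peak in any of those lists, 36.4% were lower and 4.01% higher. Summed over the 8 members, peaks covered 4693 and 4510 bp with vitamin C and 12316 and 10802 bp in the controls, 39.8% of the control mean (log2 ratio -1.33, and -0.37 in lists cut to the same number of peaks). Over all protein-coding genes the sum was 32.7% of the control mean. Without HEXIM1 the other 7 members came to 30.0%. The median member with a peak in both controls had 35.1% of its control cover with vitamin C, against 24.4% for the median of all such genes.

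**Figure D2:**
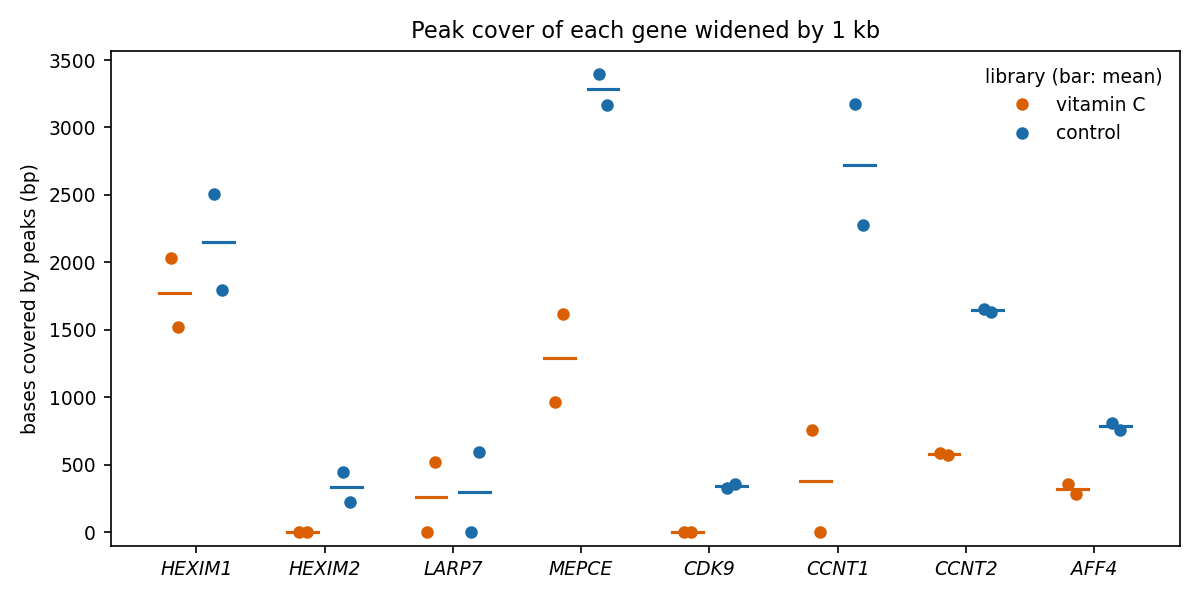
Bases covered by peaks in each gene widened by 1 kb, in bp, with 1 point per library, vitamin C left of control and a bar at the mean of each pair. Groups overlap at HEXIM1 and LARP7, and at the other 6 genes both vitamin C points lie below both control points.

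HEXIM1 (chr17:45148475-45152099, plus strand), the P-TEFb inhibitor, carried the strongest peak of the 8 genes in each library. This peak covered the start and was 1466 and 1521 bp wide with vitamin C and 1591 and 1517 bp in the controls. Its summit lay 46 and 31 bp past the start with vitamin C and 34 and 98 bp past it in the controls. All 300 bases printed above were covered in every library. By the fold of its strongest peak HEXIM1 ranked 3 and 25 among the genes with vitamin C and 3 and 9 in the controls. These ranks describe each list by itself, and lists of different length do not show a change.

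The summit of the HEXIM1 start peak held 137 and 110 labelled fragments with vitamin C and 150 and 122 in the controls. In units of the genome mean these were 112 (95% counting interval 94.3 to 133) and 126 (104 to 152) with vitamin C, and 184 (155 to 215) and 144 (119 to 172) in the controls. The vitamin C mean was 119 ± 9.90 and the control mean 164 ± 28.2 (SD, n = 2 each), a ratio of 0.729 (exact two-sided permutation p = 0.333). Both vitamin C values were below both control values, but the intervals of both vitamin C libraries overlapped that of control replicate 2. Over 3996 regions met in all 4 libraries at protein-coding genes the median ratio was 0.722, 76% of them were lower in both vitamin C libraries than in both controls and 0.626% were higher. The ratio at the HEXIM1 summit was thus close to that of the median region.

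Beyond its start, HEXIM1 had weaker peaks that differed from library to library. Vitamin C replicate 1 had one at 1102 to 1420 bp past the start and one at 2691 to 2936 bp, and vitamin C replicate 2 had none. Control replicate 1 had peaks at 1819 to 2191 bp and 2444 to 2984 bp, and control replicate 2 had 1 at 3909 to 4184 bp, past the end of the gene. Covered length in the widened gene was 2031 and 1521 bp with vitamin C and 2505 and 1793 bp in the controls, with means of 1776 ± 361 and 2149 ± 503 bp (SD, n = 2 each; exact two-sided permutation p = 0.667). The groups overlapped, and in lists cut to the same number of peaks the difference turned, with 2031 and 1521 bp with vitamin C and 1591 and 1517 bp in the controls. KAS-seq peaks carry no strand, and these weaker peaks also lie in the antisense gene HEXIM2-AS1, so they cannot be assigned to 1 of the genes.

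For likeness to HEXIM1 by covered share, 954 protein-coding genes had a length within 20% of that of HEXIM1, and the 3 with the most similar covered share of the widened gene over the 4 libraries were ACTB, ZNF703 and ITGB1BP2. HEXIM1 was covered to 36.1% and 27% with vitamin C and 44.5% and 31.9% in the controls. ACTB, cytoplasmic beta-actin (chr7:5527148-5530601), was covered to 37.4% and 37.2% with vitamin C and 43.8% and 28.5% in the controls, a mean absolute difference of 3.88 percentage points. For ZNF703 and ITGB1BP2 this difference was 4.23 and 4.64 points. Of the 954 genes, 18 and 31 had a larger covered share than HEXIM1 with vitamin C and 37 and 55 in the controls.

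HEXIM2 (chr17:45160174-45170040, plus strand), the paralogue that can take the place of HEXIM1 on 7SK, had no peak with vitamin C. In the controls it had small peaks. Control replicate 1 had one at 501 to 710 bp and one at 1357 to 1589 bp past the outer start, and control replicate 2 had one at 1383 to 1606 bp. Covered length was 0 and 0 bp with vitamin C and 443 and 224 bp in the controls (333.5 ± 155, SD, n = 2; exact two-sided permutation p = 0.333). In lists cut to the same number of peaks HEXIM2 had no peak in any library. The shared control region, chr17:45161531-45161780, lies just before the inner HEXIM2 start at 45161875 and over the annotated start of HEXIM2-AS1 at 45161538. It covered 139 and 156 of the 300 bases printed for HEXIM2. Its summit held 12 and 12 fragments in the controls, 14.7 and 14.1 times the genome mean. Within 1 kb of any annotated start, HEXIM2 was the 1 member lost and 3 members (HEXIM1, MEPCE, CCNT2) had a peak in all 4 libraries. Over 15811 genes with a start given these shares were 5.45% and 7.44%, and of the 2687 genes with such a peak in both controls 32.1% and 43.8%.

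MEPCE (chr7:100428790-100434118, plus strand), the methyltransferase that caps 7SK, had a peak at its start in every library, and fewer bases there were covered with vitamin C. The peak overlapped the neighbouring protein-coding gene ZCWPW1 in vitamin C replicate 2 and in both controls, so this signal cannot be assigned to 1 gene. In the controls 1 peak of 1522 and 1253 bp spanned the start. With vitamin C the same stretch held 2 narrower peaks in each library, of 244 and 372 bp in replicate 1 and 584 and 399 bp in replicate 2. Covered length over the widened gene was 966 and 1616 bp with vitamin C and 3399 and 3168 bp in the controls, with means of 1291 ± 460 and 3283.5 ± 163 bp (SD, n = 2 each; log2 ratio -1.35, exact two-sided permutation p = 0.333). The gap between the groups exceeded the spread within each.

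The summit of the MEPCE start region held 24.6 and 25.3 times the genome mean with vitamin C and 40.4 and 29.4 times in the controls, a ratio of 0.714 (exact two-sided permutation p = 0.333). The summits lay 128 and 58 bp past the start with vitamin C and 119 and 127 bp past it in the controls. A second region ran past the far end of the gene, from 5068 to 6808 bp after the start in its full extent, and overlapped the neighbouring gene PPP1R35, so its signal cannot be assigned to 1 gene. There the peak was 759 and 780 bp wide with vitamin C and 1741 and 1703 bp in the controls, and the summit held 24.6 and 16.1 times the genome mean with vitamin C and 28.2 and 29.4 times in the controls (ratio 0.706). Both of these regions were thus present in every library and narrower with vitamin C.

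LARP7 (chr4:112637143-112657586, plus strand), which binds and protects the 3′ end of 7SK, had no peak within 1 kb of either annotated start in any library. Its only peaks lay about 4.1 to 4.7 kb into the gene, in vitamin C replicate 2 (519 bp) and control replicate 2 (594 bp), and overlapped each other. Covered length was 0 and 519 bp with vitamin C and 0 and 594 bp in the controls (exact two-sided permutation p = 1), and the groups overlapped. These peaks were weak, at percentiles 19.5 and 3.90 of the fold in their own lists. LARP7 and CDK9 were the 2 members without a peak near a start in any library.

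RN7SK (chr6:52995620-52995951), the gene of the 7SK RNA, is transcribed by RNA polymerase III and is no protein-coding gene. Near-identical copies of 7SK lie elsewhere in the genome, and how reads were split among them was not tested. It had a peak over the gene in all 4 libraries. The summit of that peak held 89 and 59 fragments with vitamin C and 62 and 55 in the controls, which is 73.0 and 67.7 times the genome mean with vitamin C and 75.9 and 64.8 times in the controls. The means were 70.3 ± 3.69 and 70.3 ± 7.85 (SD, n = 2 each; ratio 1, exact two-sided permutation p = 1), and the groups overlapped. The local background there was 1.35 and 0.871 fragments with vitamin C and 2.62 and 6.36 in the controls, so that the peak stood at percentiles 99.5 and 99.3 of the fold with vitamin C and 97.3 and 75.1 in the controls. Control replicate 2 had the highest local background and the lowest percentile of the 4 libraries. Peaks within 1 kb of the gene covered 932 and 747 bp with vitamin C and 1457 and 887 bp in the controls (exact two-sided permutation p = 0.667).

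**Figure D3:**
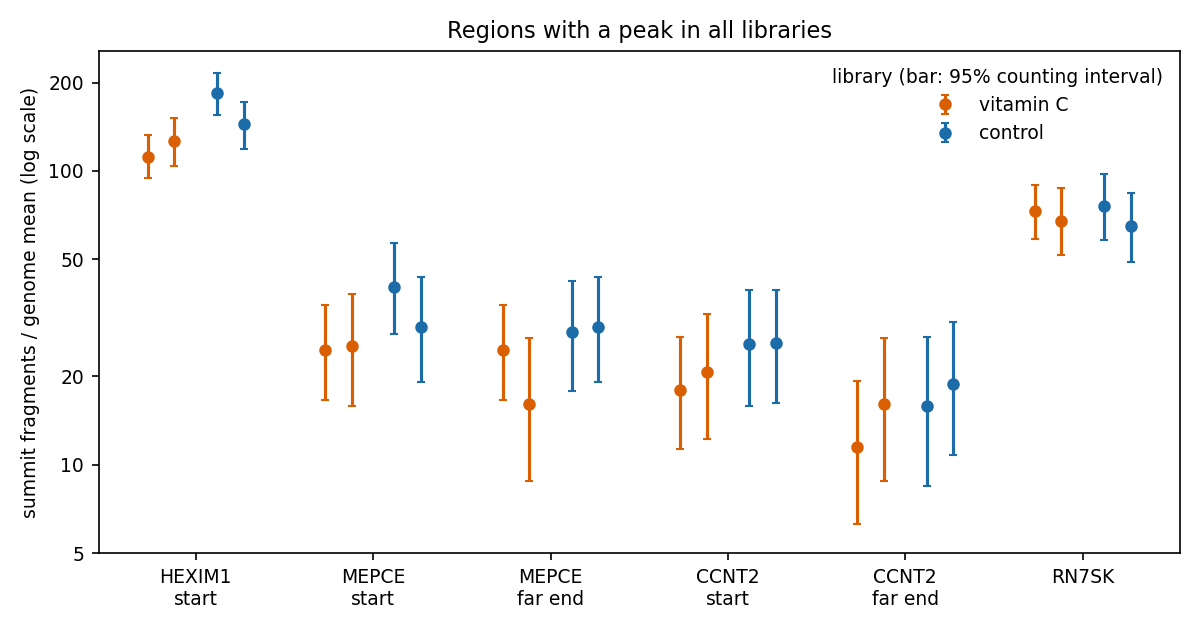
Labelled fragments at the summit divided by the genome mean of the library (log axis), for the 5 regions at member genes met in all 4 libraries and for RN7SK, with 1 point per library, vitamin C left of control, and bars for the 95% Poisson counting interval. HEXIM1 lies at 112 to 184 times the genome mean, the other member regions at 11.5 to 40.4, and the vitamin C points lie below both controls except at the CCNT2 far end and RN7SK.

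CDK9 (chr9:127786034-127790792, plus strand), the kinase subunit, had no peak near its start in any library, with or without vitamin C. The loss recorded for this gene concerns 1 small region close to its far end, chr9:127790297-127790673, 4263 to 4639 bp past the start. Covered length was 0 and 0 bp with vitamin C and 326 and 360 bp in the controls (343 ± 24.0, SD, n = 2; exact two-sided permutation p = 0.333). The control summits held 20 and 15 fragments, 24.5 and 17.7 times the genome mean, at percentiles 91.9 and 81.9 of the fold in their lists. These summits held more fragments than the weakest called at the genome mean in any list. How many fragments this site held with vitamin C is not known, because no peak was listed there.

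CCNT1 (chr12:48688458-48716707, minus strand), cyclin T1, had few covered bases left with vitamin C. Covered length was 754 and 0 bp with vitamin C and 3174 and 2274 bp in the controls, with means of 377 ± 533 and 2724 ± 636 bp (SD, n = 2 each; log2 ratio -2.85, exact two-sided permutation p = 0.333). In lists cut to the same number of peaks it was 754 and 0 bp with vitamin C and 790 and 228 bp in the controls, where the groups overlapped and the difference was -132 bp in place of -2347 bp. Each control had 6 peaks: at the start, in the last part of the gene and just past its far end, with 2 further peaks in the middle in control replicate 2. With vitamin C only 1 peak remained, at the start in replicate 1. It covered 213 of the 300 printed bases, against 0 in vitamin C replicate 2 and 300 and 30 in the controls. Regions at 23943 to 24440 bp, 25266 to 25833 bp and 28543 to 28952 bp past the start were met in both controls and in neither vitamin C library.

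CCNT2 (chr2:134918822-134959342, plus strand), cyclin T2, had 584 and 569 bp covered with vitamin C and 1656 and 1633 bp in the controls, with means of 576.5 ± 10.6 and 1644.5 ± 16.3 bp (SD, n = 2 each; log2 ratio -1.51, exact two-sided permutation p = 0.333). The gap between the groups exceeded the spread within each. In lists cut to the same number of peaks the groups overlapped, with 584 and 569 bp with vitamin C and 292 and 891 bp in the controls, and the difference was -15 bp in place of -1068 bp. A region at 412 to 839 bp past the start was present in all 4 libraries, with summits at 18.0 and 20.7 times the genome mean with vitamin C and 25.7 and 25.9 times in the controls (ratio 0.750). Peak width there was 297 and 426 bp with vitamin C and 292 and 265 bp in the controls. The annotated start itself was not covered. The region upstream of the start, at -975 to -634 bp and within the antisense gene CCNT2-AS1, was met in both controls and in neither vitamin C library. A region past the far end, at 40682 to 41838 bp, was met in all 4, with 11.5 and 16.1 times the genome mean with vitamin C and 15.9 and 18.8 times in the controls (exact two-sided permutation p = 0.667), and here the groups overlapped. Its peak was 287 and 461 bp wide with vitamin C and 1132 and 901 bp in the controls.

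AFF4 (chr5:132875395-132963634, minus strand), the super elongation complex scaffold, is the longest member. Covered length was 358 and 285 bp with vitamin C and 813 and 756 bp in the controls, with means of 321.5 ± 51.6 and 784.5 ± 40.3 bp (SD, n = 2 each; log2 ratio -1.29, exact two-sided permutation p = 0.333). The peaks were not the same in the 2 groups. Both vitamin C libraries and control replicate 2 had a peak at 9556 to 10024 bp past the start, and both controls but neither vitamin C library had one at 10610 to 11193 bp. The local background at the peak nearer the start was 5.16 and 2.08 fragments with vitamin C and 5.08 in control replicate 2, above the genome mean in each. A peak within 1 kb of the start was seen in control replicate 1 alone, and lies within 1 kb of the divergent gene AFF4-DT as well. In lists cut to the same number of peaks the direction turned, with 358 and 285 bp with vitamin C and 0 and 0 bp in the controls.

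Across the 8 genes the peaks of the 4 lists merged into 32 regions. Of these, 5 were met in all 4 libraries (HEXIM1 start, both MEPCE regions, and both CCNT2 regions described above), against 12.7% of the 31467 such regions at all protein-coding genes. Met in both controls and in neither vitamin C library were 7, against 16.2% of all such regions. A further 14 were seen in a single control only (43.8%, against 52.7% of all such regions). With vitamin C alone 1 was seen, inside HEXIM1 in vitamin C replicate 1 (3.12%, against 3.22% of all such regions). Of the 5 regions met in all 4 libraries, 3 began or ended within 1 kb of the start and 2 lay at or past the far end.

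Open DNA past the far end was examined in a window chosen after the values were seen. Between 1 and 5 kb past the far end, 5 of 8 members had a peak in all 4 libraries: MEPCE, CDK9, CCNT1, CCNT2 and AFF4. Of all 15811 genes with a start given 9.94% had one. Of the 5889 of them with a peak in both controls in the gene widened by 1 kb, 23.2% had one. LARP7 did not meet that condition, so the member count to set beside the 23.2% is 5 of 7. The MEPCE peak there is the one shared with PPP1R35, and in vitamin C replicate 2 the CCNT2 peak there is the edge of the far-end region described above. The AFF4 peak of vitamin C replicate 2 had its summit 5014 bp past the far end, so only its edge met the window. Nearer to AFF4, a peak in vitamin C replicate 1 and in both controls overlapped the protein-coding gene LEAP2. Between 1 and 5 kb before the start, 0 of 8 members had a peak in all 4 libraries, against 3.4% of all 15811 genes. Without LARP7 this was 0 of 7, against 7.18% of the 5889 genes. The members were few and the window was chosen on them, so the 2 shares are a description.

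Past the end of CDK9, with no annotated gene underneath, vitamin C replicate 1 had peaks with summits 2024, 3150 and 4499 bp away and replicate 2 had them 2968 and 4481 bp away. Control replicate 1 had summits at 1987, 3278 and 4650 bp and control replicate 2 at 2022, 3156 and 4477 bp. The outermost held 16.4 and 14.9 times the genome mean with vitamin C and 22 and 20 times in the controls. Downstream of the gene called lost by the 1 kb rule there were thus peaks in every library. They carry no strand, and whether they belong to CDK9 was not tested.

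The strongest peak in or near CCNT1 by summit fragments lay outside the 1 kb window, about 2 kb past the far end of the gene. It held 50 and 42.5 times the genome mean with vitamin C and 73.4 and 83.6 times in the controls. It was 757 and 767 bp wide with vitamin C and 1492 and 928 bp in the controls. The local background under it was 2.38 and 5.55 fragments with vitamin C and 2.29 and 3.18 in the controls. At AFF4 a peak with its summit about 5 kb past the far end held 18.0 and 19.5 times the genome mean with vitamin C and 23.3 and 20 times in the controls. In each of these peaks the vitamin C values were below both controls.

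At most other genes of the pathway fewer bases were covered with vitamin C as well. Of 52 genes in 5 lists, 37 had a peak in both controls, and of these 22 had one in all 4 libraries, 6 in 1 vitamin C library and 9 in none (24.3%, against 26.9% of all genes with a peak in both controls). Covered length was lower in both vitamin C libraries than in both controls at 35 of the 42 with a peak in any library and higher at 0, against 67% and 0.169% of all genes with a peak in any library. Being lower in this sense needs a peak in both controls. The closer comparison is therefore 35 of 37, against 90.2% of all genes with a peak in both controls. The median of the 37 was 24.7% of the control cover, close to the 24.4% of all such genes. No exact permutation p for these genes can fall below 0.333, and their values are given without it.

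**Figure D4:**
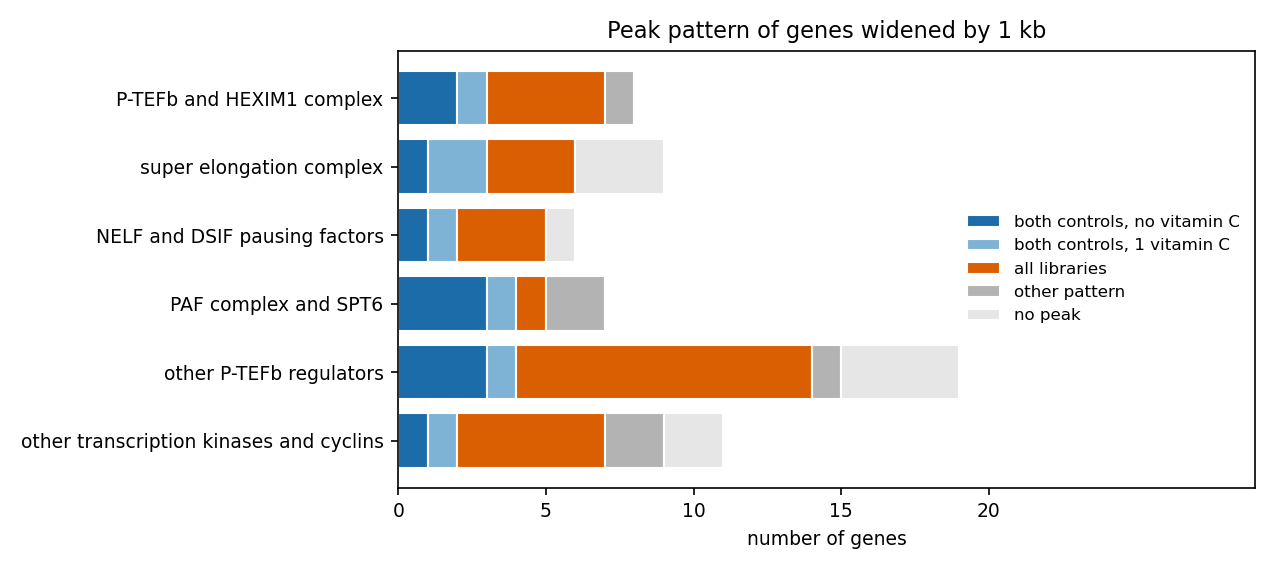
Number of genes in each list by the libraries in which the gene widened by 1 kb met a peak. All libraries (orange) is the most frequent pattern in the P-TEFb and HEXIM1 complex with 4 of 8 genes. The same holds for the pausing factors (3 of 6), other P-TEFb regulators (10 of 19) and other kinases and cyclins (5 of 11). In the PAF complex list 3 of 7 genes met peaks in both controls and no vitamin C library. Of all protein-coding genes 17.5% and 9.47% had these 2 patterns, and of those with a peak in both controls 49.7% and 26.9%.

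In the super elongation complex, whose ELL subunits raise the rate of elongation, 3 of 9 genes had a peak in all libraries and MLLT3, a YEATS domain reader of acylated histones, was lost, with 0 and 0 bp with vitamin C and 592 and 56 bp in the controls. ELL kept most of its cover, with 1126 and 1280 bp with vitamin C and 1399 and 1376 bp in the controls. MLLT1 had 487 and 681 bp with vitamin C and 1644 and 1054 bp in the controls. AFF1, the paralogue of AFF4, had 398 and 347 bp with vitamin C and 426 and 514 bp in the controls. The 3 genes of the list without a peak in any library were AFF3, ELL2 and EAF1.

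Among the pausing factors NELF and DSIF, which hold the polymerase until P-TEFb acts, 3 of 6 genes had a peak in all libraries and NELFA was lost, with 0 and 0 bp with vitamin C and 636 and 217 bp in the controls. SUPT5H, the large DSIF subunit and a substrate of P-TEFb, had 564 and 615 bp covered with vitamin C and 2811 and 1961 bp in the controls. NELFB had 524 and 320 bp with vitamin C and 2323 and 1342 bp in the controls, and SUPT4H1 had 428 and 312 bp with vitamin C and 1382 and 828 bp in the controls. In the list of the PAF complex and SPT6, which travel with the elongating polymerase, LEO1, CDC73 and SUPT6H were lost and PAF1 was the 1 gene of 7 with a peak in all libraries. The cover lost at LEO1 and CDC73, both PAF complex subunits, was small in at least 1 control: LEO1 had 0 and 0 bp with vitamin C and 212 and 217 bp in the controls, and CDC73 had 0 and 0 bp with vitamin C and 210 and 1237 bp in the controls. SUPT6H, the histone chaperone SPT6, had 0 and 0 bp with vitamin C and 1250 and 1967 bp in the controls over 5 and 7 peaks. PAF1 had 672 and 729 bp with vitamin C and 2338 and 2014 bp in the controls.

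Of 19 other regulators of P-TEFb, 10 had a peak in all libraries and SKP2, EP300 and SIRT7 were lost. EP300, a histone acetyltransferase, had 0 and 0 bp with vitamin C and 2079 and 3101 bp in the controls. SKP2, a subunit of a ubiquitin ligase, had 0 and 0 bp with vitamin C and 1520 and 1530 bp in the controls. SIRT7, a deacylase of the nucleolus, had 0 and 0 bp with vitamin C and 239 and 584 bp in the controls. The most covered in the controls were NPM1, DHX9 and HNRNPA2B1. NPM1, a nucleolar chaperone, had 13734 and 13244 bp with vitamin C and 22355 and 21307 bp in the controls, and DHX9, an RNA helicase, had 6933 and 7389 bp with vitamin C and 20591 and 17557 bp in the controls. HNRNPA2B1 had 7057 and 7832 bp with vitamin C and 9229 and 10209 bp in the controls. HNRNPA1, named after its values were seen, had 8362 and 7862 bp with vitamin C and 8362 and 8362 bp in the controls, where 8362 bp is its whole widened length. Of 11 other kinases and cyclins of transcription, 5 had a peak in all libraries and CDK13 was lost, with 0 and 0 bp with vitamin C and 1070 and 2275 bp in the controls. Its relative CDK12 had 1698 and 1017 bp with vitamin C and 6453 and 5867 bp in the controls. CCNL1 had 1777 and 2431 bp with vitamin C and 7468 and 5055 bp in the controls, and CCNH, the cyclin of the TFIIH kinase, had 571 and 217 bp with vitamin C and 4482 and 4175 bp in the controls.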

How the data were processed

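KAS-seq peak lists of 4 labelled HEK293T libraries were used (2 vitamin C, 2 control). Not analysed here were 4 input libraries. The submitters' processing notes name MACS2 2.2.7.1, Bowtie2 2.4.5 and the build hg38, with settings that the sources used here do not give. Each deposited list, made by the authors for 1 library, gives position and summit, a fold enrichment (linear ratio over local background), −log10 p, −log10 q and a whole-number score that was not used. Peaks off chromosomes 1 to 22 and X (4.23% to 5.06% of a list) were left out.

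Members were the named genes, in windows widened by 1 kb, with an overlap of at least 1 bp. Positions came from RefSeq (GRCh38.p14). Starts and strands came from its promoter table, which matched 8 of 8 members and 15811 coding genes. Fragments were solved from fold = (t + 1)/(background + 1) and the Poisson p, at a tolerance of 0.005 in −log10 p, for at least 99.99% of peaks. In vitamin C replicate 1 this needed the labelled library to be scaled by 0.776. Intervals are 95% Poisson intervals and cover counting error only. For each of the 8 members an exact two-sided permutation test set vitamin C against control. Presence calls were tested on simulated lists: 200 of 200 planted genes were recovered, with 0 other genes called. Alternatives were lists of equal length (ranked by q), stricter peaks, other windows and overlap rules, and each library left out. Members and gene lists were chosen with earlier results of these data known. Named were all members, RN7SK, and, of each list, the lost genes and the 3 genes with most covered bases in the controls among those with a peak in all libraries. Also named were genes sharing a peak with a member, the 3 genes most like HEXIM1, and the marker genes with which the cells were checked. HNRNPA1 and the 3 super elongation complex genes without a peak fall outside this rule and were chosen after their values were seen. Python 3.11.15, numpy 2.4.6, pandas 2.3.3 and scipy 1.17.1 were used.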

Additional observations from a re-analysis of the deposited data

How the results depend on the processing

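Read totals are unknown, each group had 2 libraries, and a missing peak says only that the threshold was not reached. Members lower in both vitamin C libraries than in both controls numbered 6, against 2 in lists of equal length, 3 within 1 kb of a start and 5 to 7 under the other peak and window settings. HEXIM1, MEPCE and CCNT2 had a peak in all 4 libraries under each of the peak and window settings tried. In lists of equal length (9816 peaks of lowest q) 1 member was lost (CDK9) and the log2 ratio of the summed covered length was -0.37, against -1.33. HEXIM2 then had no peak in any library, and the differences (vitamin C minus control) turned to 222 bp at HEXIM1, 259.5 bp at LARP7 and 321.5 bp at AFF4, with -15 bp at CCNT2 and -132 bp at CCNT1. By construction, lists cut to the same length no longer differ in peak number. One member was lost with genes widened by 5 kb (HEXIM2), at gene ends only (CDK9; log2 ratio -1.03) and, chosen after seeing the data, within 1 kb of any annotated start (HEXIM2; -0.64). The log2 ratio was -1.22 with the summit in the window, -1.46 with at least 50% of the peak in it, and, chosen after seeing the data, -1.20 at a common −log10 p of at least 5 and -1.74 without HEXIM1. The cause of these differences between settings was not tested. CCNT1 was lost too when peaks needed a −log10 q of 5 or more, when peaks of the 2 libraries of a group had to overlap, and without vitamin C replicate 1; without vitamin C replicate 2 it had a peak in all libraries. Leaving out each library in turn gave 4 to 5 members with a peak in all libraries, 2 to 3 lost, log2 ratios of -1.42 to -1.23, and -334.5 to 259.5 bp at LARP7, including 222 bp without vitamin C replicate 1 and 259.5 bp without control replicate 2. The HEXIM1 difference of -373 bp was -17 bp without control replicate 1, -118 bp without vitamin C replicate 2, -628 bp without vitamin C replicate 1 and -729 bp without control replicate 2. With replicate number as a block the log2 ratio was -1.33, the same as without it. Same-numbered libraries were not taken as pairs: their deviations from the group means correlated at -0.01 across 9484 genes.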
